A study of Rattus norvegicus with 179 samples.

Results

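The genes described here are those whose level differed most between rats in several tissues at the same time. Gene levels were log2(CPM + 1), where CPM is counts per 1000000 counted reads of a library. In each of the 5 tissues, genes with a median of at least 5 CPM were ranked by the variance of this level over the libraries, and the 500 highest were taken. A gene in the top 500 of 3 or more tissues was a member, which gave 82 of the 32545 gene IDs in the files. Of these, 41 were in the top 500 of 3 tissues, 17 of 4, and 24 of all 5, whereas 331 further genes were in 2 lists and 1527 in 1. The members were chosen by these variances, which are therefore given as a description, with no test.

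RNA was sequenced from the prefrontal cortex, hippocampus, liver, colon, and tibialis anterior (TA) muscle of 36 male F344BN rats that were 24 mo old when obtained. The 6 groups crossed 3 oral treatments with activity, for 12 wk. CON received buffer, LP received the probiotic *L. paracasei*, and LPA received the same probiotic engineered to express Ang (1–7), each by gavage 3 times/wk. Exercised rats (Ex) ran on a treadmill at 12 cm/s on 5 days/wk, and sedentary rats (Sed) were placed on a treadmill that stood still. Each group had 6 rats, giving the groups CONSed, CONEx, LPSed, LPEx, LPASed, and LPAEx, with 5 liver libraries in LPEx.

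Of the 179 libraries, 5 lay closer to the median profile of another tissue than to that of their own label. The liver library of LPAEx rat 7 correlated with the colon (r = 0.910, against 0.629 with the liver) and that of LPEx rat 4 with the muscle (0.948, against 0.560), and both were left out of the rule and of all values below. The prefrontal libraries of LPAEx rat 9 and CONSed rat 7 lay nearer to the hippocampus, and the hippocampal library of LPSed rat 7 nearer to the prefrontal cortex, and these stayed in. Total counts ranged from 13203828 to 27563733 per library, so that 1 CPM stood for 13.2 to 27.6 reads. The gene IDs carried no symbols and could not be paired with any, so genes are named by ID and no function, marker list, or sequence is given for them.

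A level that differs between rats can belong to the animal or to the piece of tissue that was sampled. The tissues of 1 rat share its genome, its blood supply and hormones, its treatment, and its day of sampling, whereas the cell types in a dissected sample need not be shared. In bulk tissue, fewer cells of a type and less RNA per cell cannot be told apart. Whether rats keep their order from tissue to tissue is a measure that the variance rule did not use directly, and it was tested. A difference between groups that several tissues share raises both the variance and the agreement. For such genes the test is not independent of the choice.

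Variance at rank 500 was 0.437 in the prefrontal cortex, 0.522 in the hippocampus, 0.341 in the liver, 0.560 in the colon, and 0.292 in the muscle, and the values at rank 501 were 0.436, 0.521, 0.341, 0.558, and 0.291. The median gene in these tissues had a variance of 0.115, 0.113, 0.0655, 0.0961, and 0.0749. Of the 82 members, 64 were in the top 500 of the prefrontal cortex, 55 of the hippocampus, 60 of the liver, 68 of the colon, and 64 of the muscle. The last members to enter were ENSRNOG00000005695 and ENSRNOG00000003134, which ranked 495 and 499 in the list that made them members. Just outside were ENSRNOG00000023593 and ENSRNOG00000016999, which were in 2 lists and ranked 504 and 505 in their next tissue.

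Most members were of low to moderate level, and 49 reached a median of 5 CPM in all 5 tissues. Over the 311 combinations of a member and a tissue in which it was in the top 500, the median level ranged from 5.05 to 3833 CPM, and 179 of them lay under 20 CPM. The lowest and the highest library of a tissue differed by 2.09 to 8.37 on the log2 scale, with a median of 4.09. Among the members in all 5 lists, ENSRNOG00000050827 ranked second in the prefrontal cortex and first in the muscle, with variances of 3.16 and 4.28. The highest variance of a member in 1 tissue was that of ENSRNOG00000018086 in the liver, at 6.55, with levels from 0 CPM in LPAEx rat 12 to 196.9 CPM in CONSed rat 10.

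Few of the members passed the test for ordering the rats alike across tissues. Agreement was measured as the mean Spearman rho over all pairs of tissues in which a gene had a median of 5 CPM, with rats as the units. It was tested by permutation with Benjamini-Hochberg adjustment over 9668 genes. Of the 82 members, 2 passed at an adjusted p under 0.05, against 0.0931% of all genes tested (9 genes). The mean rho of members ranged from −0.21 to 0.59 with a median of 0.03, and the median of all genes tested was 0.01. It lay above 0 in 51 members. An unadjusted p under 0.05 was reached by 18 members (22.0%), against 9.90% of all genes, 8.90% of genes in the top 500 of 1 tissue, and 15.0% of those in 2. Rats of all groups were ranked together, so a group difference shared by tissues can raise both the variance and these shares. The 18 members also included every gene of a 5-gene set and of a 4-gene set that varied together, described below. Genes of a set are not separate cases, so a shared pattern counts more than once in the share of members.

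**Figure D1:**
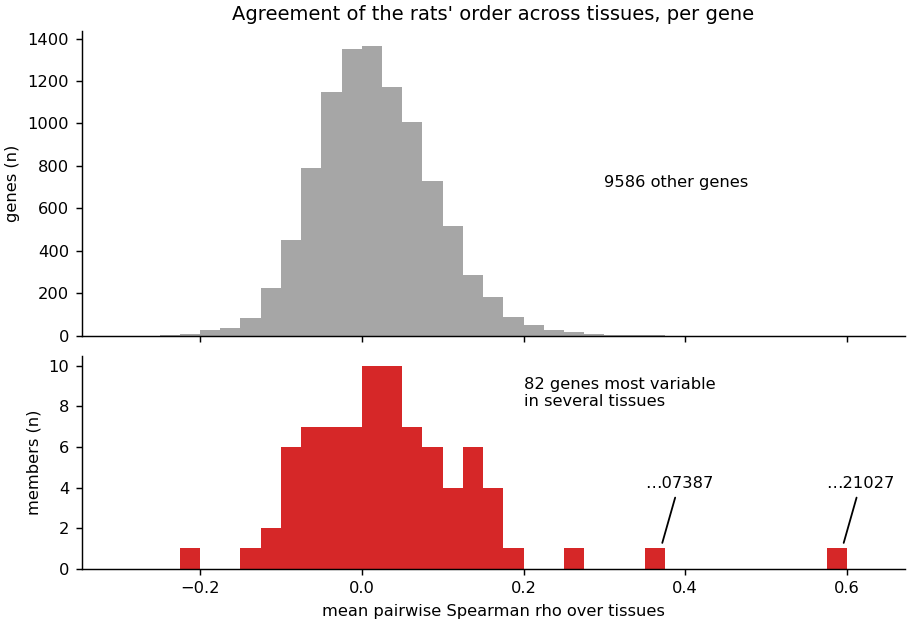
Number of genes (vertical axes) by mean pairwise Spearman rho of the rats over tissues (horizontal axis), for 9586 other genes (grey, top) and the 82 genes most variable in several tissues (red, bottom). Both distributions centre near 0, and the 2 labelled members, with mean rho of 0.37 and 0.59, lie to the right of the other members. The highest of the other genes had a mean rho of 0.43.

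The 2 members that passed were ENSRNOG00000021027 (mean rho 0.59 over 10 tissue pairs, range 0.40 to 0.75) and ENSRNOG00000007387 (0.37, range −0.08 to 0.82), each in 33 rats with all 5 tissues. Both had a permutation p of 1e-06, the smallest that the draws can give, and an adjusted p of 0.00322. Both were in the top 500 of the liver, colon, and muscle and far below it in the brain, where ENSRNOG00000021027 ranked 6540 and 6920 and ENSRNOG00000007387 ranked 3577 and 6791. When rats were ranked only against rats of their own group, 0 of the 9668 genes passed the permutation test, and 14 members (17.1%) had an unadjusted p under 0.05, against 8.34% of all genes. The mean rho was then 0.25 for ENSRNOG00000021027 (adjusted p = 0.21 by permutation) and 0.31 for ENSRNOG00000007387 (adjusted p = 0.106).

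ENSRNOG00000021027 was on average lower in exercised than in sedentary rats in all 5 tissues. The difference passed an edgeR FDR under 0.10 in 4 of them, all but the hippocampus, with values given below. In the liver, CONSed ranged from 13.3 to 44.0 CPM with a median of 25.8, LPSed from 8.65 to 23.2 with a median of 15.2, and LPASed from 7.48 to 39.4 with a median of 12.6. CONEx ranged from 4.15 to 14.1 CPM with a median of 5.76. The 4 LPEx livers had 4.24, 6.39, 6.82, and 8.51 CPM, and the 5 LPAEx livers had 2.35, 2.52, 3.23, 3.97, and 14.1 CPM. All LPEx livers lay below all LPSed livers, and in LPAEx the rat 11 stood above the other 4 and overlapped the sedentary group.

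In the muscle, ENSRNOG00000021027 had a median of 200.9 CPM in CONSed (177.0 to 243.3), 230.2 in LPSed (131.3 to 264.1), and 162.8 in LPASed (107.2 to 191.4). The exercised medians were 102.4 CPM in CONEx (27.5 to 168.0), 102.0 in LPEx (50.6 to 141.6), and 48.5 in LPAEx (31.9 to 67.2). Exercised and sedentary muscles did not overlap within CON and within LPA, and in LP 5 of 6 exercised rats lay below the lowest sedentary one. In the colon the medians were 49.9, 51.1, and 49.2 CPM in CONSed, LPSed, and LPASed, and 22.3, 17.1, and 15.9 CPM in CONEx, LPEx, and LPAEx. Each treatment had 4 of 6 exercised colons below its lowest sedentary colon.

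**Figure D2:**
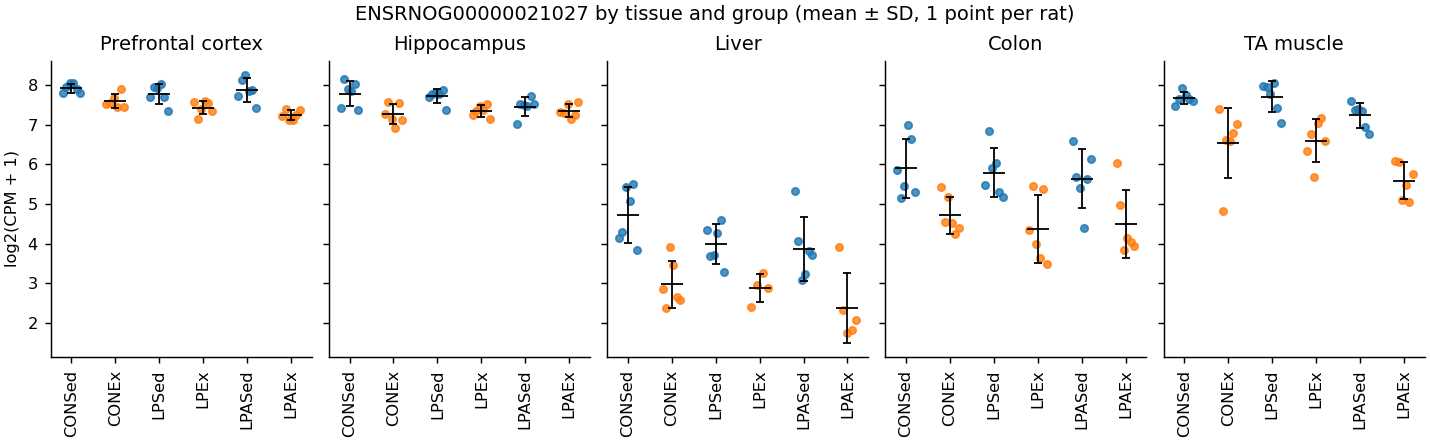
Level of ENSRNOG00000021027 as log2(CPM + 1) (vertical axis) by group (horizontal axis) in 5 tissues, with sedentary rats in blue, exercised rats in orange, 1 point per rat, and mean ± SD in black. Exercised groups lie lower than sedentary ones most clearly in the liver, colon, and muscle, where LPAEx medians were 3.23, 15.9, and 48.5 CPM.

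In the edgeR quasi-likelihood test of exercise averaged over the 3 treatments, the log2 fold change of ENSRNOG00000021027 was −1.65 ± 0.26 (SE) in the liver (FDR = 0.00143), −1.28 ± 0.23 in the colon (FDR = 0.0287), and −1.24 ± 0.14 in the muscle (FDR = 4.92e-06). In the prefrontal cortex it was −0.59 ± 0.07 (edgeR FDR = 7.81e-06), from 233.2 ± 35.8 CPM (SD, n = 18) in sedentary to 172.0 ± 25.8 CPM (n = 18) in exercised rats. In the hippocampus it was −0.37 ± 0.09, with an unadjusted edgeR p of 0.000166 and an edgeR FDR of 0.979. With the liver libraries of LPAEx rat 7 and LPEx rat 4 put back, the liver value was −0.96 (edgeR FDR = 0.169) and no longer passed. Variance in the liver, colon, and muscle chose this gene, and a difference between groups adds to variance, so the tests in those tissues are not independent of the choice. Its prefrontal variance did not enter it into that tissue's top 500.

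The exercise difference of ENSRNOG00000021027 was larger in the liver, colon, and muscle than in the brain. As a difference of mean log2(CPM + 1) it was −0.43 in the prefrontal cortex and −0.33 in the hippocampus, against −1.25 in the colon and −1.30 in the muscle over 36 rats, and −1.45 in the liver over 33. Variance in the liver, colon, and muscle chose this gene and variance in the brain did not, so these values are a description and the brain was not tested against the other tissues. The 4 comparisons within the brain or among liver, colon, and muscle had adjusted p-values of 0.409 to 0.84 by a permutation test of activity within treatments.

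Rats kept their order for ENSRNOG00000021027 between several tissues. Each pair used every rat with both libraries, which was 36 rats, or 33 where the liver was included. Values can therefore differ from the range above, which used 33 rats throughout. Between the prefrontal cortex and the muscle, Spearman's rho was 0.77 (permutation p = 1e-06, adjusted p = 0.0075 over all genes of the pair) and Pearson's r was 0.73 (permutation p = 1e-05), and r was 0.72 without the 2 rats farthest from the prefrontal median. Between the liver and the muscle rho was 0.75 (adjusted permutation p = 0.00342) and r was 0.75 (permutation p = 1e-05), and 0.68 without the 2 farthest rats. Between the liver and the colon rho was 0.74 (adjusted permutation p = 0.00815) and r was 0.76 (permutation p = 1e-05), and 0.72 without the 2 farthest rats. The other 7 pairs had rho from 0.40 to 0.68 and did not pass the adjustment. These values pool exercised and sedentary rats, which differ in level. Within the 18 sedentary rats the mean rho over the 10 pairs was 0.32 (range 0.04 to 0.47), and within the 15 exercised rats it was 0.19 (−0.33 to 0.63).

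For ENSRNOG00000007387 the order of the rats was most alike between the liver and the muscle, the 1 pair that passed the adjustment. There rho was 0.82 (adjusted permutation p = 0.00342) and r was 0.81 (permutation p = 1e-05), and r was 0.72 without the 2 rats farthest from the liver median. Liver with colon gave a rho of 0.59 and colon with muscle 0.62, with adjusted permutation p-values of 0.0995 and 0.135. The hippocampus gave rho of 0.32 with the liver, 0.34 with the colon, and 0.43 with the muscle, with adjusted permutation p-values of 0.402 to 0.953, and the prefrontal cortex gave −0.09 to 0.22 with the other tissues. Here too, pairs without the liver used 36 rats.

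At 1 end of this order stood LPAEx rat 11, with ENSRNOG00000007387 at 58.0 CPM in the liver, 86.9 in the colon, 114.1 in the muscle, and 81.8 in the prefrontal cortex. The tissue medians were 13.6, 27.1, 35.6, and 37.6 CPM. At the other end CONEx rat 5 was lowest in the liver (4.18 CPM), the colon (7.68 CPM), and the muscle (9.86 CPM), and had 40.3 CPM in the prefrontal cortex. Rats of 1 group thus lay far apart, and the groups overlapped in every tissue, except that all CONEx muscles (up to 35.6 CPM) lay below all CONSed muscles (from 40.3 CPM). Exercise, LP over CON, and LPA over LP gave no edgeR FDR under 0.10 for this gene in any tissue, with the largest difference being 0.68 ± 0.32 (SE) on the log2 scale for LPA over LP in the liver (edgeR FDR = 0.998). Within the 15 exercised rats its mean rho over the 10 tissue pairs was 0.47, and within the 18 sedentary rats it was 0.36.

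**Figure D3:**
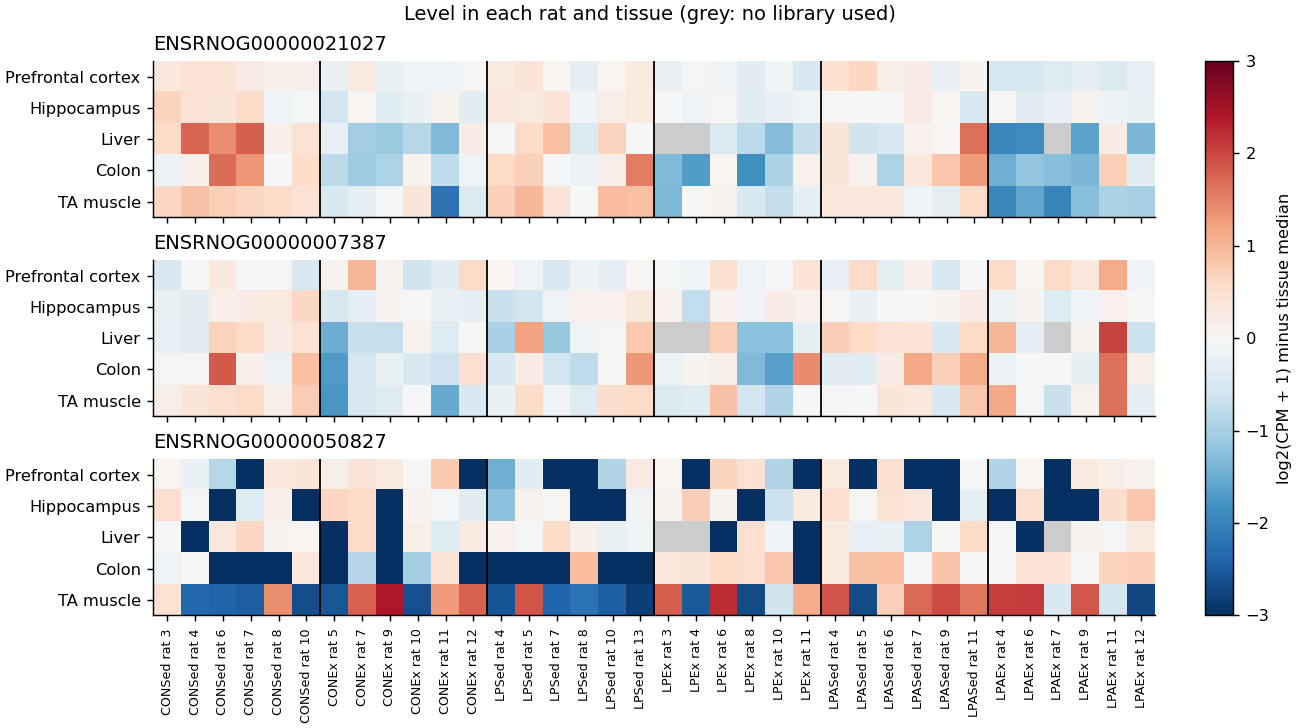
Level of 3 members in every rat (columns, by group) and tissue (rows), as log2(CPM + 1) minus the tissue median, from −3 (blue) to 3 (red), with larger differences drawn at the end of the scale and grey where no library was used. The exercised rats are mostly blue for ENSRNOG00000021027, LPAEx rat 11 is red in 4 tissues for ENSRNOG00000007387, and the low libraries of ENSRNOG00000050827 fall in different rats in different tissues.

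Over the tissue pairs, few members passed. The counts were 1 for the prefrontal cortex with the muscle (0.0133% of all genes), 1 for the liver with the colon (0.11%), and 2 for the liver with the muscle (0.132%), all in ENSRNOG00000021027 and ENSRNOG00000007387. The hippocampus with the muscle (0.0266% of all genes) and the remaining 6 pairs (0%) had 0 members by permutation with adjustment over all genes, and 3 to 8 members at an unadjusted p under 0.05, which is 5.0% to 10.5% of members in a pair, against 4.52% to 9.53% of all genes. The median rho of members was highest for the liver with the muscle (0.11, against 0.06 over all genes), where 12 of 55 members (21.8%) had an unadjusted p under 0.05, against 8.37% of all genes.

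Next in order after these 2 came ENSRNOG00000030729 (mean rho 0.26 over 3 tissues), ENSRNOG00000034190 (0.18), ENSRNOG00000032844 (0.17), ENSRNOG00000033215 (0.16), ENSRNOG00000000451 (0.16), ENSRNOG00000061299 (0.15), ENSRNOG00000029886 (0.15), and ENSRNOG00000047321 (0.15). Their adjusted permutation p-values were 0.275 to 0.495. The lowest mean rho were those of ENSRNOG00000045949 (−0.21), ENSRNOG00000015428 (−0.14), ENSRNOG00000050854 (−0.12), ENSRNOG00000047746 (−0.12), and ENSRNOG00000049330 (−0.09). For ENSRNOG00000045949 all 6 tissue pairs lay below 0, down to −0.43 between the hippocampus and the colon (adjusted permutation p = 0.731).

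Several of these genes belonged to sets of members that varied together from library to library. Sets were formed, after the values were seen and with no test, from members whose Spearman rho across libraries was at least 0.7 in every tissue where both had 5 CPM. This gave a set of 6, a set of 5, and a set of 4 genes. Within a tissue, the median rho between genes of a set was 0.89, 0.89, and 0.90. The set means were then compared between the tissues of the same rats.

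The 6-gene set held ENSRNOG00000047351, ENSRNOG00000050156, ENSRNOG00000054945, ENSRNOG00000055956, ENSRNOG00000060518, and ENSRNOG00000061254. In the muscle these ranked 8 to 26 by variance. ENSRNOG00000060518, the most abundant of them in the prefrontal cortex, had a muscle median of 109.2 CPM with a range from 12.3 CPM in CONEx rat 12 to 1036 CPM in LPEx rat 6. The set mean showed little relation between tissues, and its rho across 33 rats averaged −0.04 over the 10 tissue pairs (−0.31 to 0.19). Its highest library belonged to a different rat in each of the 5 tissues. Its rho with the total count of the library was −0.25 in the prefrontal cortex, 0.43 in the hippocampus, −0.38 in the liver, 0.07 in the colon, and −0.34 in the muscle, and the part of depth in this pattern was not tested.

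The 5-gene set held ENSRNOG00000000451, ENSRNOG00000018735, ENSRNOG00000032708, ENSRNOG00000032844, and ENSRNOG00000033215. Its set mean had an average rho of 0.16 between tissues (−0.07 to 0.44), with the highest value between the liver and the muscle. The same 3 rats, CONSed rat 10, LPEx rat 6, and LPAEx rat 11, held the 3 highest set means in both the liver and the muscle. In the liver these were 8.54, 6.64, and 6.06 as mean log2(CPM + 1), against a median of 4.51, and in the muscle 5.85, 5.93, and 5.66, against 3.43. In the prefrontal cortex the highest set mean, 8.23 against a median of 4.48, was that of LPAEx rat 9, whose library lay nearer to the hippocampus, where the median of the set was 6.29. LPEx rat 6, whose library did not lie nearer to another tissue, ranked 2 at 6.35. CONSed rat 7, whose library did lie nearer to the hippocampus, ranked 3 at 6.07. The lowest hippocampal set mean, 4.14, was that of LPSed rat 7, whose library lay nearer to the prefrontal cortex.

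The 4-gene set held ENSRNOG00000029886, ENSRNOG00000047321, ENSRNOG00000058105, and ENSRNOG00000061299, and was led by 1 rat. LPAEx rat 11 had the highest set mean in the prefrontal cortex, hippocampus, liver, and muscle and ranked 3 of 36 in the colon. For ENSRNOG00000061299 this rat had 106.4 CPM in the prefrontal cortex, 127.2 in the hippocampus, 466.7 in the liver, and 65.2 in the muscle, where the medians were 11.9, 8.12, 31.3, and 6.54 CPM. In the colon it had 17.2 CPM, below LPEx rat 4 (37.1 CPM) and LPEx rat 3 (21.1 CPM). With this rat included, the rho of the set mean between tissues averaged 0.14 over 33 rats (−0.03 to 0.35). Each of the 4 genes had its highest level in LPAEx rat 11 in 4 tissues, whereas 63 of the 82 members had no rat that was highest in more than 1 tissue.

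**Figure D4:**
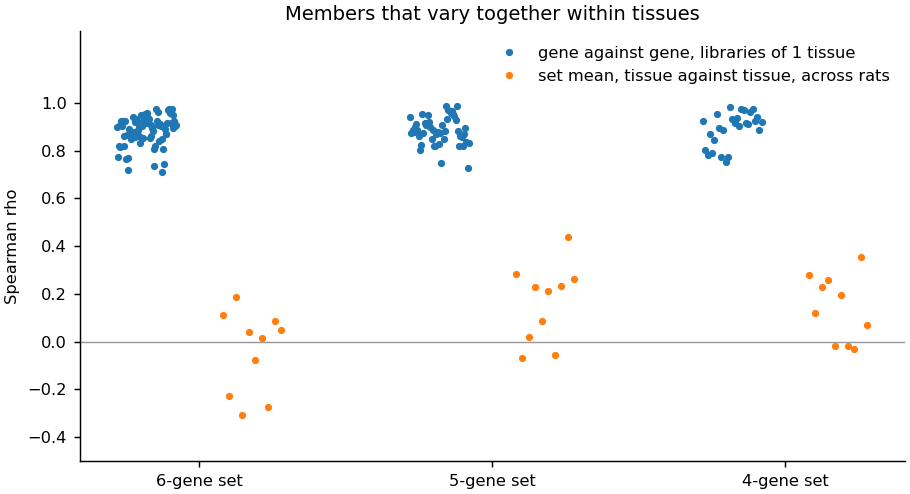
Spearman rho (vertical axis) for 3 sets of members that varied together, between the genes of a set across the libraries of 1 tissue (blue, 1 point per gene pair and tissue) and between 2 tissues for the set mean across 33 rats (orange, 1 point per tissue pair). The blue points lie above 0.7, as the sets were chosen, and the orange points lie between −0.31 and 0.44.

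Some members split the libraries of a tissue into a low and a high class. A gap of at least 1 on the log2 scale between neighbouring libraries, with 4 or more libraries on each side, was found in 17 members, in 7 of them in 2 or more tissues and in 3 of them in 3 or more. The last were ENSRNOG00000050827 in all 5 tissues, ENSRNOG00000045949 in 4, and ENSRNOG00000015447 in 3. The low class was not always near 0, since it had 0 to 1.51 CPM for ENSRNOG00000050827 but 71.8 to 91.0 CPM for ENSRNOG00000020982 in the prefrontal cortex. The gaps were described after the values were seen, with no test. They were not counted over all genes, and such a gap itself adds to the variance that chose the members. These counts therefore do not set the members apart from other genes.

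ENSRNOG00000050827 was low in 10 of 36 libraries of the prefrontal cortex, 10 of 36 of the hippocampus, 6 of 33 of the liver, 12 of 36 of the colon, and 15 of 36 of the muscle. In the liver the low libraries had 0.0583 to 0.383 CPM, with at most 7 reads, and the others 7.44 to 23.9 CPM, with at least 129 reads. In the muscle the low libraries had 0.267 to 0.909 CPM and the others 4.90 to 46.8 CPM. The gap between both classes was 1.63 to 2.61 on the log2 scale. Liver libraries of the low class had a median total count of 17775424, against 18429351 in the high class, and for muscle libraries the medians were 18168814 and 17584434.

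The state of ENSRNOG00000050827 showed little relation between the tissues of a rat. Of 33 rats with all tissues, 8 were low in no tissue, 9 in 1, 8 in 2, and 8 in 3, and none was low in 4 or 5. The liver and the muscle had the same state in 17 of 33 rats, and the colon and the muscle in 21, of which 7 were low in both. Its mean rho over the 10 tissue pairs was 0.01, with a range of −0.20 to 0.20. In the colon the low libraries were 5 of 6 in LPSed, 3 of 6 in CONSed, 3 of 6 in CONEx, 1 of 6 in LPEx, and 0 of 12 in LPASed and LPAEx, and the test between groups did not pass there (edgeR FDR = 1).

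Exercise changed 1 member past the threshold of an FDR under 0.10 and an absolute log2 fold change over 1. This was ENSRNOG00000021027, in the liver, colon, and muscle, where 0.0713%, 0.0126%, and 0.0232% of all genes passed. Variance in these tissues chose this gene, so these calls are not independent of the choice. The liver call did not pass with the 2 liver libraries left out of the rule put back. No member passed in the hippocampus, where 0% of all genes did, or in the prefrontal cortex, where 0.679% did. An unadjusted edgeR p under 0.05 was reached by 9 members (11.0%) in the hippocampus, against 3.89% of all genes, and by 12 members (14.6%) in the prefrontal cortex, against 21.3% of all genes. The higher share in the hippocampus is not independent of the choice, since group differences add to the variance that chose the members. DESeq2 also called ENSRNOG00000021027 in the liver, colon, and muscle.

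Without the fold threshold, 5 members had an edgeR FDR under 0.10 for exercise in the prefrontal cortex, against 10.7% of all genes. Averaged over the treatments, all 5 members were lower in exercised rats. In the liver (0.15% of all genes), colon (0.0189%), and muscle (0.0463%) only ENSRNOG00000021027 had such an FDR, and in the hippocampus 0 members passed. ENSRNOG00000043866 had 12877 ± 2742 CPM (SD) in CONSed, 13416 ± 2636 in LPSed, and 12421 ± 3408 in LPASed. Its exercised groups had 10508 ± 2786 CPM in CONEx, 8931 ± 1255 in LPEx, and 7782 ± 1973 in LPAEx, with a log2 fold change of −0.67 ± 0.12 (edgeR FDR = 0.003). The groups of a treatment overlapped, since the highest exercised rat of CON and of LP and LPA lay above the lowest sedentary rat.

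ENSRNOG00000030478 changed by −0.60 ± 0.12 (edgeR FDR = 0.00381), from 11204 ± 2500 CPM (SD) in CONSed to 9789 ± 2653 in CONEx and from 11300 ± 2596 in LPASed to 7238 ± 1582 in LPAEx. ENSRNOG00000012404, at 94.1 ± 13.0 CPM in LPSed and 60.5 ± 11.2 in LPEx, changed by −0.66 ± 0.13 (edgeR FDR = 0.00419). Neither ENSRNOG00000043866 nor ENSRNOG00000030478 was in the prefrontal top 500, where their variances ranked 3383 and 4165. The last of the 5 was ENSRNOG00000007663, at −0.89 ± 0.33 (edgeR FDR = 0.0979), and without the prefrontal libraries of LPAEx rat 9 and CONSed rat 7 it also passed the fold threshold. ENSRNOG00000007663 was in the top 500 of all 5 tissues. Its prefrontal variance thus helped to choose it, and these tests are not independent of the choice.

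Treatment changed no member in the edgeR test. For LP over CON and for LPA over LP, 0% of all genes passed in every tissue. Over the 404 tests of a member in a tissue, 33 and 39 had an unadjusted edgeR p under 0.05. By tissue this was 3.66% to 12.3% of members for LP over CON, against 2.33% to 4.62% of all genes, and 2.56% to 14.6% for LPA over LP, against 2.66% to 6.26%. For LPA over LP the share of members lay below that of all genes in the muscle (2.56% against 6.26%). It lay above in the other tissues, with 14.6% against 4.99% in the prefrontal cortex. A difference between groups adds to the variance that chose the members, so shares above those of all genes are not independent of the choice. DESeq2 called 1 member for LP over CON, ENSRNOG00000047746 in the prefrontal cortex, among 9 calls in all, and 0 members for LPA over LP, among 4 calls.

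The test for a difference between any of the 6 groups passed 16 times in members. By tissue the counts were 7 of 82 in the prefrontal cortex (2.43% of all genes), 2 of 82 in the hippocampus (0.242%), 4 of 81 in the liver (0.863%), 2 of 81 in the colon (0.572%), and 1 of 78 in the muscle (0.108%), each by edgeR at an FDR under 0.10. Since a group that stands apart adds to the variance that chose the members, shares above the background are not independent of the choice. ENSRNOG00000021027 accounted for 4 of the 16.

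The exercise differences of ENSRNOG00000043866, ENSRNOG00000030478, and ENSRNOG00000012404 in the prefrontal cortex are given above. Among the other calls, several had a wide spread within 1 group. In the colon, ENSRNOG00000047737 had 94.3 ± 67.1 CPM (SD, n = 6) in CONSed, from 20.7 to 186.6, and group means of 18.7 to 30.4 CPM in the other 5 groups (edgeR FDR = 0.000281). In the hippocampus, ENSRNOG00000000443 had 74.8 ± 74.6 CPM in CONSed, from 11.0 to 176.4, and means of 18.5 to 30.6 CPM elsewhere (edgeR FDR = 0.0227). The lowest CONSed rat lay within the range of the other groups for ENSRNOG00000047737 and below it for ENSRNOG00000000443.

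In the liver, ENSRNOG00000012181 had 30.0 ± 49.8 CPM (SD, n = 5) in LPAEx, from 3.72 to 119.0, against means of 5.73 to 7.75 CPM in the other groups (edgeR FDR = 0.0329). ENSRNOG00000005825 had 98.4 ± 155.4 CPM in LPAEx and 50.0 ± 31.6 CPM (n = 4) in LPEx, against 21.5 to 29.6 CPM in the others (edgeR FDR = 0.0793). Without the liver library of LPAEx rat 11, the liver count fell from 4 members to 1, ENSRNOG00000021027, and without that of LPAEx rat 12 it was 7.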

How the data were processed

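Reads were trimmed with Trim Galore and cutadapt, checked with FastQC, and aligned with STAR to Rnor_5.0, per the submitters' processing notes, which give no tool versions. The authors deposited raw gene counts, without normalization, for 32545 Ensembl IDs in 179 libraries. No pair of libraries was identical. The reference tables paired 0 IDs with a symbol, so gene lists and promoter motifs planned for named genes were not used.

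CPM was computed from column totals and analysed as log2(CPM + 1). Agreement across tissues was tested against 1000000 shared draws of rank orders (one-sided), tissue pairs two-sided, and Pearson's r with 100000 resamples (Python 3.11.15, numpy 2.4.6). Groups were compared per tissue with edgeR 4.0.16 (R 4.3.3) quasi-likelihood tests on a single factor of 6 groups after its low-count filter and TMM scaling, with Benjamini-Hochberg FDR, and DESeq2 1.42.0 as an alternative. The SE is the size of the log2 fold change divided by the square root of F. Scripts were tested on simulated data. P-values measure the spread between rats.

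The members, lists, and tests were chosen with earlier results of these data known. Genes named were those in all 5 top lists that are described, the 10 highest and 5 lowest mean rho, at most 3 called members per tissue and contrast, and the threshold neighbours. Genes in sets, gaps, or with extreme values were chosen after their values were seen.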

Additional observations from a re-analysis of the deposited data

Results flagged for a closer look

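Within the 60 groups of ENSRNOG00000021027 and ENSRNOG00000007387, 6 had a rat far from the others, and chance alone gives about 1 in 20. Variance in the liver, colon, and muscle chose both genes, and a rat far from the others adds to variance, so this rate does not hold there. The same rats also recur across the tissues. For ENSRNOG00000021027, as log2(CPM + 1), LPASed rat 11 was low in the hippocampus (7.02, others 7.46 to 7.72), LPAEx rat 11 was high in the liver (3.92, others 1.75 to 2.31), and CONEx rat 11 was low in the muscle (4.83, others 6.59 to 7.40). For ENSRNOG00000007387, LPEx rat 4 was low in the hippocampus (4.74, others 5.36 to 5.68), LPASed rat 9 was low in the liver (3.42, others 4.29 to 4.60), and LPAEx rat 11 was high in the colon (6.46, others 4.52 to 4.98).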

How the results depend on the processing

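The 82 members became 133 with a median of at least 1 CPM, 172 with no filter, 53 with the top 250, and 231 with the top 1000, and numbered 81 to 95 when each rat was left out. Of the 82, 53 remained members by median absolute deviation (87 in all). The count of 2 members whose rats ranked alike was 0 with ranks within groups and 2 under every other alternative run, including each rat left out and, added after seeing the data, without the 3 brain libraries nearer to the other region. Exercise called 3 combinations of member and tissue, among 122 calls over all genes, and 8 with no fold threshold. DESeq2 called 1 for LP, among 9 calls over all genes, and 27 for any group, among 1638, against 16 among 648 by edgeR. With the 2 liver libraries put back, 25 differed between groups. Of these, 13 were in the liver, among 2113 calls over all genes there, against 4 among 121 without those libraries. The liver value of ENSRNOG00000021027 was then −0.96.

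The labels reuse rat numbers in several groups without saying that they pair the animals. Deviations of same-numbered rats correlated on average by 0.01 in the prefrontal cortex, 0.03 in the hippocampus, 0.06 in the liver, 0.14 in the colon, and 0.15 in the muscle, with single pairs from −0.55 to 0.75. With rat number as a replicate block, 3 combinations differed between any groups, all in ENSRNOG00000021027, among 36 calls over all genes. For exercise 3 passed, among 104 calls over all genes. Leaving out single liver libraries of LPEx or LPAEx or the hippocampal library of LPSed rat 7 gave 13 to 19 for any group and 3 for exercise.

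At 13.2 to 27.6 reads per CPM, low levels rest on few reads.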

Other observations

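ENSRNOG00000013552 had a liver median of 3750 CPM with a range from 36.6 CPM in LPEx rat 8 to 10684 CPM in LPASed rat 6. ENSRNOG00000010079 had a colon median of 156.7 CPM, from 3.73 CPM in LPAEx rat 4 to 1104 CPM in LPASed rat 11, and a muscle median of 3101 CPM, from 911.9 to 6160 CPM. ENSRNOG00000013548 had a muscle median of 13.7 CPM, from 0.679 CPM in CONEx rat 11 to 428.9 CPM in CONEx rat 12, that is both ends in 1 group. These genes were chosen for their spread after the values were seen.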
